A study of Mus musculus with 12 samples.

Results

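A group of 117 genes had a lower signal in wild-type mouse neutrophils on immobilized immune complexes (IC) than on a control surface, in each of 3 experiments. The signals are log2 values of a gene array, whose probes are grouped into transcript clusters that mostly stand for 1 gene each. A gene entered the group when its cluster named only that gene, had a mean of at least 6 over the 12 arrays, and lay more than 0.3 below its wild-type control in every experiment (a difference below -0.3). Of the 28939 annotated clusters, 21789 named a single gene and 10007 of those reached the mean level. The 117 genes are 1.17% of these 10007 clusters, and 91 clusters (0.909%) passed the mirrored bound of more than 0.3 above the control. The wild-type signals chose the genes, so the wild-type values given below describe the choice and carry no test. The *Card9*-/- arrays took no part in the choice except through the mean level, and they are where the behaviour of the genes can be read.

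The wild-type mice were C57BL/6 and the *Card9*-/- mice carried a knockout of *Card9* in all their cells. Per the study's methods, neutrophils were obtained from leg bone marrow by hypotonic lysis and a Percoll gradient. Sorting on Ly6G is described there only for a separate measurement of CARD9 protein. Ly6G+ neutrophils of both genotypes were kept for 4 h on the control surface or on IC, in 3 experiments that the series description places at separate time points. Per that description the control surface carried human serum albumin and the IC surface additionally antibodies against it, and per the study's methods attached and floating cells were lysed together. The 4 groups were wild-type and *Card9*-/- cells on Control and wild-type and *Card9*-/- cells on IC, each with 1 array per experiment, made from 150 ng of RNA. The sources used here do not say how many animals went into an array, so that the spread measured is that between experiments.

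Neutrophils bind immune complexes with Fc receptors for IgG, which signal through Src-family kinases and Syk. CARD9 is an adaptor that acts below Syk together with Bcl10 and Malt1 and is best known for passing signals on to NF-kappaB and to the transcription of chemokine and cytokine genes. Activated neutrophils also release granules and remodel their surface and membrane lipids, and transcripts can become rarer through less synthesis or faster decay, which an array of steady-state RNA does not separate.

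The targeted gene followed the labels, with *Card9* signals of 8.08 to 8.75 on the 6 wild-type arrays and 5.56 to 6.42 on the 6 *Card9*-/- arrays. All 11 neutrophil markers examined had a mean of 6 or more, and their summed signal was 15.7 to 16.0 on every array. Within experiments 1, 2 and 3 that sum differed between IC and control by -0.10, -0.08 and -0.11 in wild type. In *Card9*-/- cells it differed by 0.10, 0.01 and 0.08. Of these 11 markers, 5 lay below the control in each wild-type experiment (23.5% of the 10007 clusters did) and 0 in each *Card9*-/- experiment (18.3%). None of the markers of 7 cell types examined was among the 117 genes. The summed monocyte and macrophage markers (10 of 11 measured markers at a mean of 6 or more) ran from 11.8 to 12.6 on wild-type Control, 12.3 to 12.9 on wild-type IC, 11.7 to 12.3 on *Card9*-/- Control and 11.8 to 12.7 on *Card9*-/- IC. Within experiments 1, 2 and 3 this sum differed between IC and control by 0.51, 0.12 and 0.49 in wild type and by 0.08, -0.18 and 0.42 in *Card9*-/- cells. Of the 11 measured eosinophil, basophil and mast cell markers, 8 lay below the control in each wild-type experiment (12.3% of the 28939 clusters did). In each *Card9*-/- experiment 3 of the 11 did (14.7% of clusters). Their summed differences were -0.12, -0.27 and -0.14 in wild type and 0.03, -0.18 and -0.27 in *Card9*-/- cells. The part of such cells in the lowered group was not tested. In these bulk samples fewer cells of a kind and less RNA per cell cannot be told apart. Experiment 3 stood apart from the others, with array medians of 5.27 to 5.39 against 5.70 to 5.93.

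Of the group, 5 genes also lay more than 0.3 below the control in each *Card9*-/- experiment. *Cd101* encodes an immunoglobulin-superfamily protein carried by mature neutrophils of mouse bone marrow, *Abhd15* a protein with a hydrolase fold known from fat cells, *Mcam* the adhesion molecule CD146, and *Pcyox1* an oxidase that breaks down prenylcysteine in lysosomes, and the fifth gene was *Arhgef4*. The 120 bases in front of their start sites are shown because these genes met the bound in both genotypes, which is how they were picked. The sequences are those of RefSeq on GRCm38.p6, 5′ to 3′ on the strand of the gene, and capitals mark the motifs named after them.
Cd101: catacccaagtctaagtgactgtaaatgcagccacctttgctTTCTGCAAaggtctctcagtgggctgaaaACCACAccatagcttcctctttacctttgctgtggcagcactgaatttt
Abhd15: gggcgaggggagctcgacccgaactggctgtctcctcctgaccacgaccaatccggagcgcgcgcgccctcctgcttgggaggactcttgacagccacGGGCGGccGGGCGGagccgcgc
Mcam: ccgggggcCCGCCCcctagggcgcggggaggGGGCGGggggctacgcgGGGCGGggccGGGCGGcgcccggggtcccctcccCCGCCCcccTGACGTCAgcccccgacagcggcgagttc
Pcyox1: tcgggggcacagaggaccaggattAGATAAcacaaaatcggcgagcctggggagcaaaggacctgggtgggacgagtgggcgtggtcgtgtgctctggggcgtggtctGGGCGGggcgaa
Arhgef4: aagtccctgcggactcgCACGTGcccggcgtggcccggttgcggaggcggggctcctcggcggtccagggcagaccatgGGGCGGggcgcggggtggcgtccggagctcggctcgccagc

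These windows lie at chr3:101029554-101029673 on the minus strand for *Cd101*, chr11:77514997-77515116 on the plus strand for *Abhd15*, chr9:44134538-44134657 on the plus strand for *Mcam*, chr6:86397151-86397270 on the minus strand for *Pcyox1* and chr1:34678062-34678181 on the plus strand for *Arhgef4*, which has 2 promoters in the table, the first of them shown. Both strands were searched for the letters of each motif. The *Mcam* window held the cAMP response element TGACGTCA, 29 to 22 bases before the start, a match found in 1.31% of the 27025 windows of the same length. The *Arhgef4* window held the E-box CACGTG (3.64% of windows), the *Pcyox1* window the GATA motif AGATAA (4.44%), and the *Cd101* window the C/EBP motif TTGCNNAA (4.16%) and the RUNX motif TGTGGT (6.83%), the last pair on the opposite strand. The Sp1 motif GGGCGG, present in 26.9% of windows, occurred in the windows of *Abhd15*, *Mcam*, *Pcyox1* and *Arhgef4* and not in that of *Cd101*. The windows thus shared no motif across all 5 genes among those in capitals, and their GC content ran from 45.8% for *Cd101* to 86.7% for *Mcam*. A promoter was found for 91 of the 117 genes (77.8%), too few for a check of motifs over the whole group.

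In wild-type cells the 117 genes had median differences between IC and control of -0.47, -0.40 and -0.59 in experiments 1, 2 and 3, beside -0.03, 0.00 and -0.14 for the 10007 clusters. The gene means over the 3 experiments ran from -0.87 for *Amer2*, a regulator of Wnt signalling, to -0.32 for *Ppp3ca*, the catalytic subunit of calcineurin, and the median gene stood at 69.3% of its control level. The lowering was largest in experiment 3 for 76 genes, in experiment 1 for 28 and in experiment 2 for 13. The genes at the bound were *Supt16*, *Stx17* and *Sos2*, whose weakest wild-type differences were -0.3002, -0.3013 and -0.3015, and the nearest clusters outside it were *Atp8b4* (-0.2998), *Ddx60* (-0.2991) and *Rbm43* (-0.2962). At the level bound the lowest means inside were those of *Slc35b4* (6.07), *Rasgef1a* (6.13) and *Ttk* (6.21), while *Mcts1* (5.82), *Hacd1* (5.73) and *Mrs2* (5.72) met the wild-type bound below it. Of the 117 genes 116 are protein coding, as are 9644 of the 9988 clusters at this level with a RefSeq entry. The 117 genes lie on 20 chromosomes with 14 on chromosome 9, for which the share of all clusters is not given here. None shares its values with another cluster.

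In *Card9*-/- cells most of the same genes also lay below their control on IC. The median differences were -0.19, -0.16 and -0.23 in experiments 1, 2 and 3, beside 0.00, -0.02 and -0.06 for the 10007 clusters, and the median gene stood at 87.2% of its control level. The number of genes below 0 was 112, 106 and 102 of 117 (95.7%, 90.6% and 87.2%), where 49.7%, 56.1% and 57.6% of all clusters were below 0. In each of the 3 experiments 88 genes (75.2%) were below 0, against 18.3% of the 10007 clusters, and the mean was below 0 for 112 genes (95.7%), against 58.9%. A difference below -0.1 in each experiment was found for 50 genes (42.7%, against 3.32% of all clusters), below -0.2 for 11 (9.4%, against 0.3%) and below -0.3 for 5 (4.27%, against 0.06%). Only 6 of the 10007 clusters met that last bound in *Card9*-/- cells, so 5 of the 6 belonged to the lowered group. The sixth was *Map3k8*, a kinase of the NF-kappaB and ERK pathways, with a mean of -0.60 in *Card9*-/- cells and wild-type differences of 1.32, -0.25 and 0.30.

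**Figure D1:**
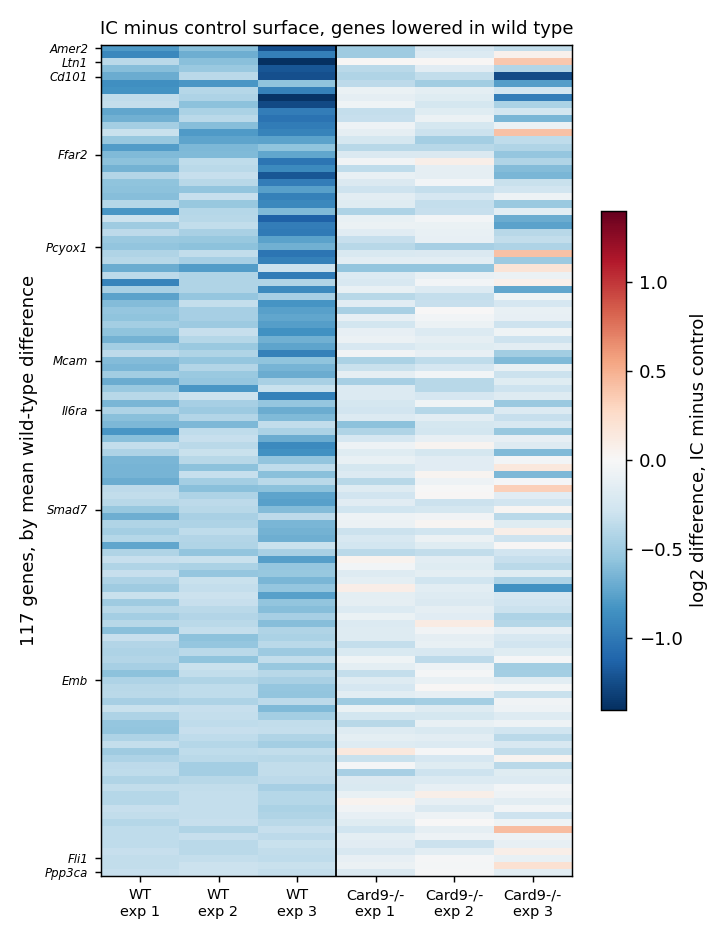
Log2 difference between IC and control for each of the 117 genes (lines, ordered by the mean wild-type difference) in each experiment (columns), with wild type on the left and Card9-/- on the right of the black line. Blue is lower on IC, and the wild-type columns are blue throughout by the rule, while in the Card9-/- columns 112, 106 and 102 genes lie below 0.

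**Figure D2:**
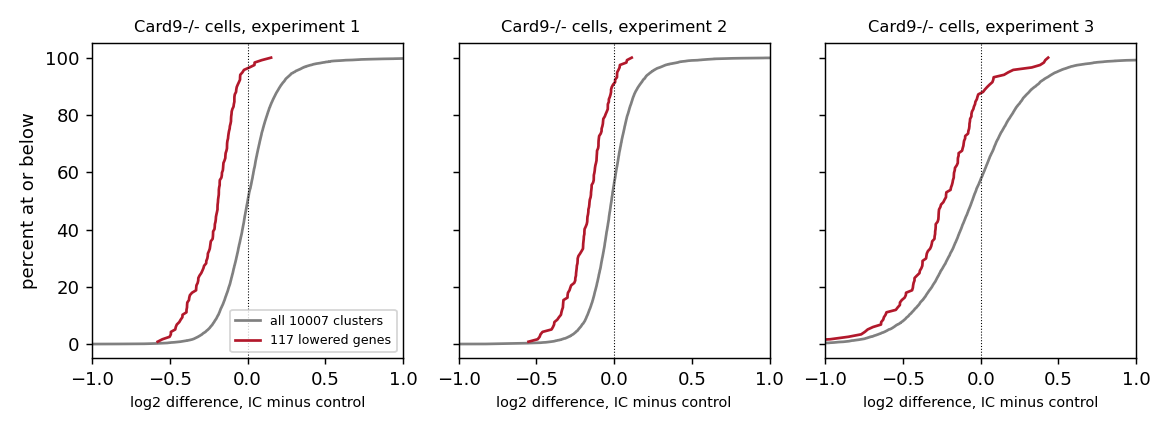
Cumulative percent of clusters (vertical axis) at or below a given log2 difference between IC and control (horizontal axis, drawn from -1 to 1) in Card9-/- cells, for the 117 lowered genes (red) and all 10007 clusters (grey). The red line lies to the left of the grey one in the 3 panels, with medians of -0.19, -0.16 and -0.23 against 0.00, -0.02 and -0.06.

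No single gene passed the test in *Card9*-/- cells. The test was limma with the experiment as a block, fitted on the 12 arrays with Benjamini-Hochberg adjustment over the 28939 clusters, and 0 clusters passed (0% at an adjusted p under 0.05), with a smallest adjusted p of 0.544 over all clusters and of 1 among the 117 genes. Without adjustment, 19 of the 117 genes (16.2%) were lower with a p under 0.05, against 332 of the 28939 clusters (1.15%) and 92 of the 10007 (0.919%), and 0 of the 117 were higher. The median standard error of a gene's difference was 0.13, in the 117 genes and in the 10007 clusters, so that a typical *Card9*-/- difference of -0.20 was less than 2 standard errors from 0.

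The 5 genes below -0.3 in each *Card9*-/- experiment were examined array by array. *Cd101* signals in experiments 1, 2 and 3 were 10.15, 9.25 and 8.63 on wild-type Control, 9.46, 8.87 and 7.40 on wild-type IC, 10.15, 9.39 and 7.74 on *Card9*-/- Control and 9.74, 9.05 and 6.49 on *Card9*-/- IC. The 4 groups overlapped across experiments, because experiment 3 was low in all of them, and within each experiment both IC arrays lay below their controls. The *Card9*-/- differences of *Cd101* were -0.42, -0.34 and -1.25, with a mean of -0.67 (standard error 0.28, limma, unadjusted p = 0.0333, adjusted p = 1), the lowest mean among the 117 genes. Without experiment 3 the *Cd101* mean was -0.38.

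*Abhd15* signals were 8.22, 7.32 and 6.61 on wild-type Control, 7.36, 6.51 and 6.05 on wild-type IC, 8.17, 7.63 and 6.40 on *Card9*-/- Control and 7.79, 7.14 and 5.63 on *Card9*-/- IC. Its *Card9*-/- differences were -0.37, -0.49 and -0.77, with a mean of -0.54 (standard error 0.17). In experiment 3 the lowering was thus larger in *Card9*-/- cells than in wild type, where it was -0.56.

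*Mcam* had the smallest unadjusted p of the group in *Card9*-/- cells (0.00108 by limma, adjusted p = 1). Its signals were 8.22, 7.90 and 7.37 on wild-type Control, 7.61, 7.36 and 6.80 on wild-type IC, 8.28, 8.10 and 7.36 on *Card9*-/- Control and 7.84, 7.75 and 6.73 on *Card9*-/- IC. The *Card9*-/- differences were -0.44, -0.36 and -0.62, with a mean of -0.47 and a 95% interval of -0.71 to -0.23, beside -0.61, -0.54 and -0.57 in wild type. *Mcam* therefore stood at 72.1% of its control level in *Card9*-/- cells and at 67.2% in wild-type cells.

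*Pcyox1* and *Arhgef4* had the narrowest range of differences over the 3 *Card9*-/- experiments among the 5 genes. *Pcyox1* signals were 8.04, 8.70 and 7.98 on wild-type Control, 7.49, 8.12 and 7.31 on wild-type IC, 8.26, 8.76 and 7.84 on *Card9*-/- Control and 7.87, 8.30 and 7.41 on *Card9*-/- IC. The *Card9*-/- differences were -0.39, -0.46 and -0.44 (mean -0.43, standard error 0.10). *Arhgef4* signals were 8.21, 8.37 and 7.65 on wild-type Control, 7.42, 7.74 and 7.08 on wild-type IC, 8.73, 8.53 and 7.38 on *Card9*-/- Control and 8.34, 8.14 and 6.95 on *Card9*-/- IC. Its *Card9*-/- differences were nearly equal at -0.39, -0.39 and -0.43 (mean -0.40), although its standard error in the fit over all 4 groups was 0.18.

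**Figure D3:**
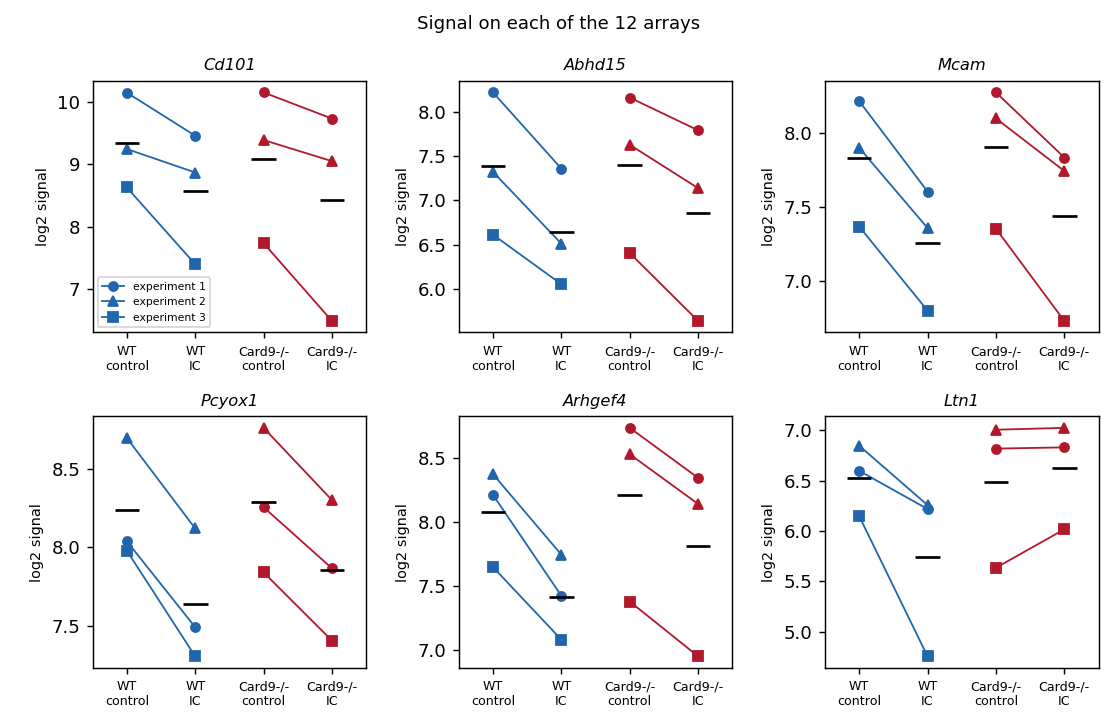
Log2 signal (vertical axis) of 6 genes on each of the 12 arrays, with a line joining the control and IC arrays of the same genotype and experiment, a symbol for each experiment and a black bar at the group mean of 3 arrays. For Cd101, Abhd15, Mcam, Pcyox1 and Arhgef4 the 3 lines slope down in wild type (blue) and in Card9-/- (red), whereas for Ltn1 the 3 red lines slope up, by 0.01, 0.02 and 0.38.

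At the other end, a single gene lay above its control in each *Card9*-/- experiment, which is 0.855% of the group against 10.9% of all clusters. This was *Ltn1*, which encodes listerin, a ubiquitin ligase that marks unfinished proteins on stalled ribosomes. Its signals were 6.60, 6.85 and 6.15 on wild-type Control, 6.22, 6.26 and 4.75 on wild-type IC, 6.82, 7.0 and 5.63 on *Card9*-/- Control and 6.83, 7.02 and 6.02 on *Card9*-/- IC. The wild-type IC arrays were the lowest of each experiment. The *Card9*-/- differences were 0.01, 0.02 and 0.38, with a mean of 0.14 and a 95% interval of -0.22 to 0.50.

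A mean near or above 0 in *Card9*-/- cells was also found for *Anp32-ps* (0.05), a pseudogene of a family of nuclear phosphoproteins, *Supt16* (0.03), a subunit of the histone chaperone FACT, *Chordc1* (0.01), a partner of Hsp90, and *Med4* (0.00), a subunit of the Mediator complex. These 4 genes lay below 0 in experiments 1 and 2 and above 0 in experiment 3. For *Med4*, for instance, the *Card9*-/- differences were -0.21, -0.20 and 0.42, and for *Chordc1* they were -0.28, -0.12 and 0.43. In all, 28 genes were below 0 in 2 of the 3 *Card9*-/- experiments.

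The genes were sorted into 11 functional sets after their values were seen, and the sets were not tested against each other. Of all 117 genes, 75.2% were below 0 in each *Card9*-/- experiment, the share beside which the counts by set stand. The 13 receptors, ligands and surface proteins had medians of -0.57 in wild type and -0.25 in *Card9*-/- cells, and 12 of them were below 0 in each *Card9*-/- experiment. *Il6ra* is the binding chain of the interleukin-6 receptor, and its signals were 9.92, 10.76 and 8.74 on wild-type Control, 9.48, 10.25 and 8.05 on wild-type IC, 10.09, 10.71 and 8.37 on *Card9*-/- Control and 9.82, 10.31 and 8.17 on *Card9*-/- IC. Its IC array lay below the control of the same experiment in every case, with *Card9*-/- differences of -0.27, -0.40 and -0.19. *Ffar2*, a receptor for short-chain fatty acids that guides neutrophils, differed by -0.62, -0.62 and -0.73 in wild type and by -0.20, -0.20 and -0.55 in *Card9*-/- cells. *Il17ra*, the shared chain of interleukin-17 receptors, had *Card9*-/- differences of -0.15, -0.14 and -0.51. *Insr*, the insulin receptor, and *Hgf*, the ligand of the receptor Met, were lowest against their controls in experiment 3, by -1.37 and -1.26 in wild type and by -0.97 and -0.44 in *Card9*-/- cells, beside -0.12 and -0.06 for *Card9*-/- cells in experiment 1. *Itga6*, an integrin subunit that binds laminin, was the surface gene nearest to 0 in *Card9*-/- cells, at -0.11, -0.16 and -0.04.

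The 9 lipid enzymes and lipid carriers had the lowest set median in *Card9*-/- cells, -0.31, close to the -0.29 of the transporters. Their wild-type median was -0.60, and 8 of the 9 were below 0 in each *Card9*-/- experiment. They include *Abhd15* and *Pcyox1* from the 5 genes above. *Asah1* encodes acid ceramidase, which releases sphingosine in lysosomes, and it differed by -0.52, -0.53 and -0.75 in wild type and by -0.32, -0.11 and -0.35 in *Card9*-/- cells. *Sgpp1*, a phosphatase of sphingosine-1-phosphate, differed by -0.08, -0.10 and -0.75 in *Card9*-/- cells, and *Smpdl3a*, a phosphodiesterase related in sequence to acid sphingomyelinase, by -0.14, -0.15 and -0.38. *Osbpl2*, a sterol-binding carrier, and *Pctp*, a carrier of phosphatidylcholine, both had a *Card9*-/- mean of -0.35, with the lowest value of *Osbpl2* in experiment 3 (-0.64) and that of *Pctp* in experiment 1 (-0.58).

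The 9 transporters, pumps and channels had medians of -0.59 and -0.29, and 6 of them were below 0 in each *Card9*-/- experiment. *Slco4a1*, an organic anion transporter, was lower on IC in every experiment, by -0.53, -0.74 and -0.75 in wild type and by -0.25, -0.48 and -0.35 in *Card9*-/- cells (mean -0.36, standard error 0.11, limma, unadjusted p = 0.00623, adjusted p = 1). *Hvcn1* is the voltage-gated proton channel that sustains the oxidative burst of phagocytes, and its signals were 8.59, 8.90 and 8.64 on wild-type Control, 7.90, 8.12 and 8.34 on wild-type IC, 9.18, 8.88 and 8.37 on *Card9*-/- Control and 8.64, 8.33 and 8.54 on *Card9*-/- IC. The channel was low on the IC arrays of experiments 1 and 2 in both genotypes (-0.55 and -0.55 in *Card9*-/- cells), but in experiment 3 it was at the bound in wild type (-0.30) and above the control in *Card9*-/- cells (0.18). Among the 4 sugar and glycan enzymes, *Gcnt1*, which branches the O-glycans of selectin ligands, differed by -0.59, -0.51 and -1.20 in wild type and by -0.38, -0.16 and -0.41 in *Card9*-/- cells. *Gne*, the key enzyme of sialic acid synthesis, differed by -0.20, -0.39 and -0.29 in *Card9*-/- cells.

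The 15 kinases, phosphatases and other signalling enzymes had medians of -0.54 and -0.18, and 13 of them were below 0 in each *Card9*-/- experiment. *Pik3cg*, the catalytic subunit of the phosphoinositide kinase used by chemoattractant receptors, differed by -0.40, -0.53 and -0.91 in wild type and by -0.16, -0.33 and -0.52 in *Card9*-/- cells. *Ptpn22*, a phosphatase that restrains Src-family and Syk-family signals, had *Card9*-/- differences of -0.43, -0.33 and -0.15. The catalytic and regulatory subunits of calcineurin were both in the group, with *Card9*-/- means of -0.12 for *Ppp3ca* and -0.18 for *Ppp3r1*. The Tec-family kinase *Bmx* and *Pde2a*, a phosphodiesterase of cyclic nucleotides, had *Card9*-/- differences of -0.20, -0.04 and -0.31 (*Bmx*) and of -0.19, -0.15 and -0.33 (*Pde2a*).

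The 12 small GTPases and their regulators had medians of -0.53 and -0.16, and 8 of the 12 were below 0 in each *Card9*-/- experiment. *Rgs18*, which shortens signals of G-protein-coupled receptors, had signals of 9.99, 10.07 and 9.66 on wild-type Control, 9.56, 9.64 and 9.02 on wild-type IC, 10.32, 10.36 and 9.58 on *Card9*-/- Control and 10.24, 10.39 and 9.41 on *Card9*-/- IC. It was low on the wild-type IC arrays of every experiment, while its *Card9*-/- differences were -0.08, 0.03 and -0.17. *Dock8*, needed for leukocyte movement, differed by -0.17, 0.01 and -0.06 in *Card9*-/- cells beside -0.39, -0.32 and -0.38 in wild type. *Sos2*, an exchange factor for Ras, and *Rab23*, a GTPase of membrane traffic, had *Card9*-/- differences of -0.11, -0.04 and -0.69 (*Sos2*) and of -0.10, -0.14 and -0.26 (*Rab23*).

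The 12 genes of transcription and chromatin had medians of -0.43 and -0.16, and 8 of the 12 were below 0 in each *Card9*-/- experiment. *Cebpe*, a transcription factor of late granulocyte maturation, differed by -0.36, -0.37 and -0.32 in wild type and by -0.16, -0.30 and -0.11 in *Card9*-/- cells. *Fli1*, an Ets-family factor of blood cells, differed by -0.35, -0.33 and -0.35 in wild type, with *Card9*-/- values of -0.12, -0.02 and -0.11. *Smad7*, which blocks signals of the TGF-beta receptor, had *Card9*-/- differences of -0.28, -0.24 and 0.03.

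The remaining 4 sets also had medians below 0 in both genotypes. The 8 genes of the ubiquitin system and protein quality control had medians of -0.57 and -0.22 and included 3 F-box proteins, substrate receptors of ubiquitin ligases, of which *Fbxo9*, *Fbxo10* and *Fbxo31* had *Card9*-/- means of -0.25, -0.30 and -0.40. The 14 genes of membrane traffic and the secretory pathway had medians of -0.46 and -0.21, with 11 below 0 in each *Card9*-/- experiment. *Stx17*, which joins autophagosomes to lysosomes, lay at -0.13, -0.18 and -0.23 in *Card9*-/- cells. Among the 4 metabolic enzymes, *Idh1*, the cytosolic isocitrate dehydrogenase, differed by -0.90, -0.69 and -0.96 in wild type and by -0.50, -0.19 and 0.06 in *Card9*-/- cells. The 17 cytoskeletal and unassigned genes had medians of -0.51 and -0.20, with 11 below 0 in each *Card9*-/- experiment. Their lowest wild-type mean was that of *Amer2*, whose *Card9*-/- differences were -0.49, -0.23 and -0.34.

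**Figure D4:**
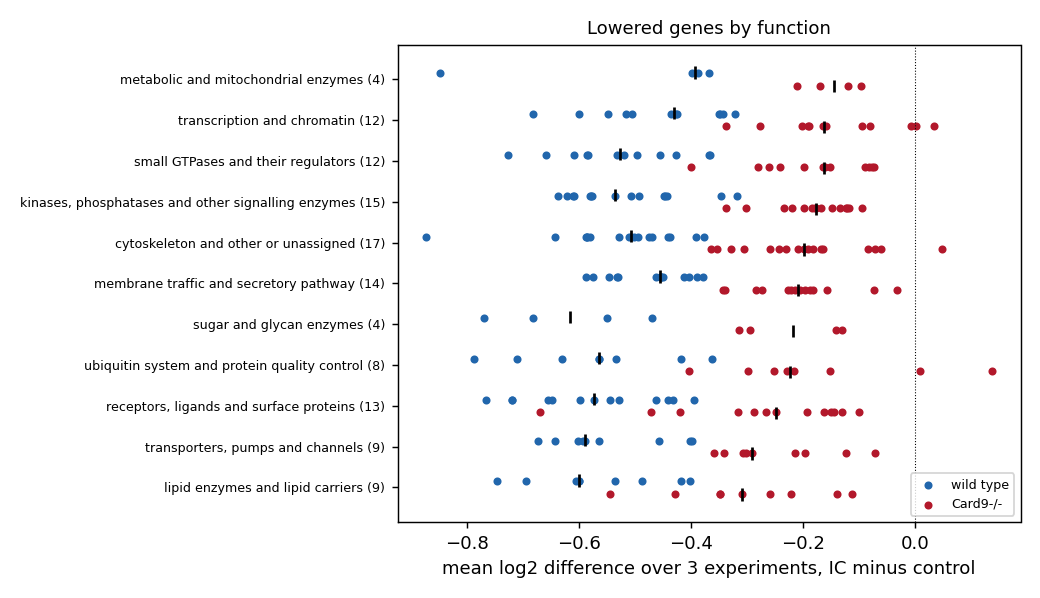
Mean log2 difference between IC and control over 3 experiments (horizontal axis) for the 117 genes, sorted into 11 functional sets (vertical axis, number of genes in brackets), in wild type (blue) and Card9-/- (red), with a black bar at each median. The Card9-/- medians run from -0.31 for the lipid genes to -0.15 for the metabolic enzymes, and the wild-type values of each set were fixed to the left of 0 by the choice of the genes.

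Few of the 117 genes belonged to the lists of pathways examined. The list of Fc and inhibitory receptors had 2, *Ptpn22* and the inhibitory receptor gene *Milr1*. The lists of TGF-beta signalling (*Smad7*), trafficking receptors and adhesion (*Itga6*), granule and maturation genes (*Cebpe*) and phosphoinositide enzymes (*Pik3cg*) had 1 each, and 9 further lists, interferon-stimulated genes, cell cycle genes and chemokines and cytokines among them, had 0. In *Card9*-/- cells 0 genes of these lists passed the limma test in either direction. Over the 28 genes of the phosphoinositide list at a mean of 6 or more, the median was -0.22 in wild type and -0.10 in *Card9*-/- cells, with 14 of the 28 below 0 in each wild-type experiment (23.5% of the 10007 clusters were) and 9 in each *Card9*-/- experiment (18.3%).

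Since the wild-type values were chosen to be low, they cannot be set against *Card9*-/- values that were not. The wild-type response was therefore also read in the experiment that took no part in the choice. Clusters below -0.3 in experiments 2 and 3 (204 clusters) had a wild-type median of -0.35 in experiment 1, with 95.1% of them below 0, and a *Card9*-/- median of -0.15 in that experiment. Clusters chosen on experiments 1 and 3 (414) had medians of -0.22 in wild type and -0.08 in *Card9*-/- cells in experiment 2. Clusters chosen on experiments 1 and 2 (229) had medians of -0.32 and -0.08 in experiment 3. The wild-type medians of all 10007 clusters were -0.03, 0.00 and -0.14, so the chosen clusters lay further below 0 than the others in arrays that the choice did not use, with the smallest gap in experiment 3. The *Card9*-/- value lay above the wild-type value for 86.8%, 81.2% and 79.9% of the chosen clusters, against 57.0%, 45.3% and 61.4% of all clusters. The choice still used wild-type arrays only, and no matching choice on *Card9*-/- arrays was made. It therefore favours clusters with a stronger lowering in wild type. This difference between the genotypes was not tested.

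**Figure D5:**
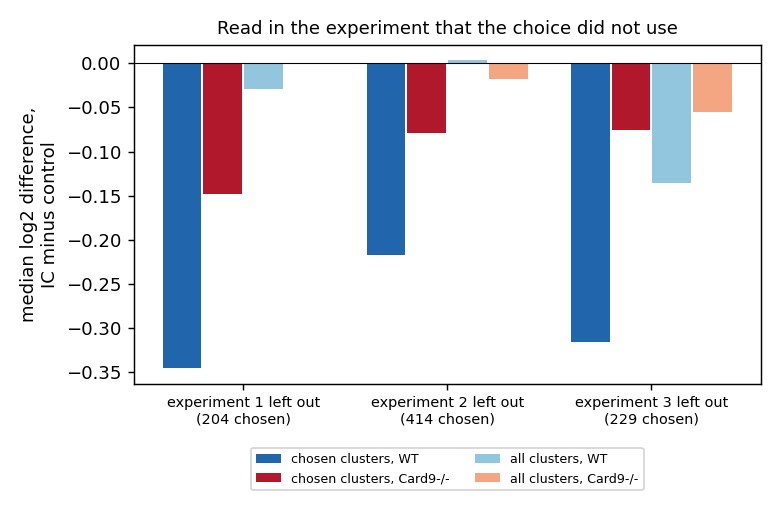
Median log2 difference between IC and control (vertical axis) in the experiment left out of the choice, for clusters chosen on the other 2 wild-type experiments (dark bars) and for all 10007 clusters (light bars), in wild type (blue) and Card9-/- (red). The dark blue bars reach -0.35, -0.22 and -0.32 and the dark red bars -0.15, -0.08 and -0.08.

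Across the 117 genes the wild-type and *Card9*-/- differences of an experiment correlated at r = 0.50, 0.47 and 0.32, given as a description, since the genes share the arrays and the bound cuts the wild-type range. Between experiments the wild-type differences correlated at 0.27 for experiments 1 and 2 and at 0.03 and 0.07 for experiment 3 with either. In *Card9*-/- cells the same values were 0.42, -0.05 and 0.07. The order of the genes within the group in experiment 3 was thus close to unrelated to that in the other experiments, in both genotypes. On IC the genes were higher in *Card9*-/- than in wild-type cells, with median differences between the genotypes of 0.40, 0.37 and 0.12 in experiments 1, 2 and 3, and on the control surface these were 0.11, 0.12 and -0.23. These differences include the chosen wild-type arrays and were not tested. The highest such mean difference of the 117 genes on either surface was that of *Idh1*. It was 1.09 higher in *Card9*-/- cells on IC and 0.45 higher on the control surface. Its Control signals in experiments 1, 2 and 3 were 8.29, 8.82 and 7.41 in wild type and 9.27, 9.24 and 7.37 in *Card9*-/- cells.

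The lowered genes differed from the other clusters in level and in length. Their median signal was 8.24, against 7.75 for the 10007 clusters, and the median stretch of genome they occupy was 37942 bases, against 21285. Both properties moved with the response of experiment 3, more strongly in wild type than in *Card9*-/- cells. The wild-type median of all clusters in that experiment was -0.02 for means of 6 to 8, -0.35 for 8 to 10 and -0.21 from 10 upwards, and it was 0.13 for genes under 10000 bases, -0.20 for 10000 to 50000 bases and -0.33 for longer genes. In experiments 1 and 2 these wild-type medians lay between -0.05 and 0.02. In *Card9*-/- cells the experiment 3 medians of all clusters were 0.01, -0.14 and -0.17 over the same 3 ranges of the mean. The lowered genes had -0.17, -0.27 and -0.29 there. Over the 3 length classes the *Card9*-/- medians of experiment 3 were 0.02, -0.09 and -0.07 for all clusters and -0.29, -0.22 and -0.23 for the lowered genes. Within the 3 length classes 75%, 71.4% and 79.6% of the lowered genes were below 0 in each *Card9*-/- experiment, against 12.9%, 19.9% and 21.7% of all clusters in those classes. The part of level and length in the values of experiment 3 was not tested in either genotype.

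The 91 clusters raised by the mirrored bound had *Card9*-/- medians of 0.25, 0.16 and 0.34, and 55 of them (60.4%, against 10.9% of all clusters) were above 0 in each *Card9*-/- experiment. A difference above 0.3 in each experiment was reached by 20 of the 91 raised clusters (22.0%, against 0.5% of all clusters), and 5 of the 117 lowered genes (4.27%, against 0.06%) lay below -0.3. The raised clusters also had larger wild-type differences, with a median of the means of 0.62 against -0.53.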

How the data were processed

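Total RNA of 12 samples was hybridized to an Affymetrix mouse gene array, and the authors deposited 1 table of log2 signals per transcript cluster. How the authors corrected the background and summarized and normalized the log2 values was not given in the sources used here. Values were used as deposited. Of 35556 rows, 6617 with identifiers below those of the platform annotation were left out. Gene symbols came from the platform annotation, and 0 needed an update. Arrays limit the precision by their number, 3 per group.

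A gene list is not reported here. The members and gene lists were chosen with earlier results of these data known. Differences were taken within an experiment. The test was limma 3.58.1 (R 4.3.3, lmFit and eBayes, two-sided) with the 4 groups in 1 fit and the experiment as a fixed block. There were 6 residual degrees of freedom, and the prior added 5.40. The labels number the experiments, each holding all 4 groups, and the series description places them at separate times. Deviations from the group means correlated at 0.671 to 0.867 between arrays of an experiment and at -0.727 to 0.355 between experiments. The procedure was tested on simulated data.

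Genes are named that had the 10 lowest wild-type means, lay below -0.3 in each *Card9*-/- experiment, had the 5 highest *Card9*-/- means, belonged to a list, or lay nearest to the bound. The other genes named, the functional sets and *Map3k8* were chosen after their values were seen. Promoters of RefSeq (GRCm38.p6, 250 bases before to 50 after the start) were searched for exact letters. The alternatives were other bounds, levels, scalings, blocks and moderation, and leaving out each experiment. Those chosen after seeing the data were centring on the median of the 10007 clusters, the fixed group with an experiment left out, and the counts of unadjusted p and of genes below -0.3. Other steps used Python 3.11.15, numpy 2.4.6, pandas 2.3.3 and matplotlib 3.10.9.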

Additional observations from a re-analysis of the deposited data

Results flagged for a closer look

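*Ltn1* was the gene of the group whose genotypes moved in opposite directions in every experiment. Its signal was lower on IC in each wild-type experiment, as the choice required, and higher on IC in each *Card9*-/- experiment, with a *Card9*-/- mean of 0.14. In experiments 1 and 2 the *Card9*-/- differences were 0.01 and 0.02, far inside the standard error of 0.16. The difference between the genotypes was not tested, because the wild-type values chose the gene.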

How the results depend on the processing

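The bound set the size of the group. At -0.2 it held 362 genes, 223 of them below 0 in each *Card9*-/- experiment. At -0.5 it held 11, of which 10 were, with a *Card9*-/- median of -0.35. Of the 10007 clusters, 18.3% were below 0 in each *Card9*-/- experiment. With an experiment left out of the choice and of the *Card9*-/- values, 204 to 414 genes were chosen and the *Card9*-/- median was -0.21 to -0.17. The genes below 0 in each remaining *Card9*-/- experiment then numbered 147 to 287, and those below -0.3 15 to 21. With the 117 genes kept these were 92 to 102 and 7 to 12. Quantile normalization chose 105 genes (86 of the 117), centring each array on its median 175 (all 117) and on the median of the 10007 clusters 101 (71 of the 117). The share below 0 in each *Card9*-/- experiment was then 78.1%, 65.7% and 68.3%, against 18.8%, 14.5% and 14.9% of all clusters. Read in the left-out experiment, the wild-type median was -0.28 and -0.47 in experiment 1 and -0.14 and -0.30 in experiment 2 at bounds of -0.2 and -0.5.

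With no replicate block, as with the experiment as a random block, 0 of the 117 genes and 0 clusters passed in *Card9*-/- cells, and the same held under the other alternatives. The number of the 117 with an unadjusted p under 0.05 and lower ranged from 0 without the block to 32 with only the *Card9*-/- arrays. In the main fit it was 19, where 0.919% of the 10007 clusters were so called. The share of all clusters under each alternative is not given here. Of 45 genes named and 12 alternatives, 534 of 540 values kept their direction, with adjusted p values of 0.918 to 1. Quantile normalization turned *Med4* (-0.030) and *Chordc1* (-0.018) below 0. Leaving out experiment 3 gave the negative end, and experiment 1 the positive end, of the ranges of *Med4* (-0.21 to 0.11), *Chordc1* (-0.20 to 0.16), *Anp32-ps* (-0.093 to 0.16) and *Supt16* (-0.055 to 0.091). The 3 arrays per group and a standard error of about 0.13 limit what could be detected for a single gene.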
